A study of Mus musculus with 6 samples.

Results

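Weakly expressed genes were compared between the array made after 4 h of 4-hydroxytamoxifen (4-OHT) and the arrays made after 12 and 24 h, in mouse E14 embryonic stem cells carrying Snail-ER. Snail (Snai1) is a zinc finger transcription factor, and ER is an estrogen receptor domain that keeps the fusion out of the nucleus until 4-OHT binds it. Members were the probes whose highest normalized intensity over these 3 arrays was at least 32 and below 150. They numbered 6655 of the 45281 probes in the normalized table, and 5666 of them had 1 gene symbol, which gave 4531 genes of the 19057 named on the array. Another 7849 probes reached 150 or more, and 30777 stayed under 32 on all 3 arrays.

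The full time course comprised 6 Illumina bead arrays, for cells given 4-OHT for 0, 2, 4, 8, 12 or 24 h, a single array for each. All cells grew in serum with LIF, the cytokine that holds mouse embryonic stem cells undifferentiated, and every array came from cells with the fusion. Hours in culture, 4-OHT and the fusion therefore cannot be told apart in any difference below. Neither separate cultures nor a clonal line is stated in the labels, so p-values measure only the spread between these arrays, which may be technical. RNA was taken from whole cultures, in which fewer cells of a type and less RNA per cell cannot be told apart.

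The 3 arrays were taken because their negative controls, probes that match no transcript, scattered least. In intensity units, the standard deviation of that background at 4, 12 and 24 h was 8.72, 4.72 and 4.73, against 14.7 to 16.1 at 0, 2 and 8 h. A probe counted as detected when it reached the lowest normalized intensity of a probe with a detection p-value under 0.01 on that array. The limits of the 4, 12 and 24 h arrays were 31.4, 18.5 and 18.9, and those of the 0, 2 and 8 h arrays 60.6, 71.1 and 62.0. Of the dim probes, 83.7% reached it at 4 h, 95.3% at 12 h and 95.1% at 24 h, compared with 32.5% to 40.7% on the other 3 arrays. The 4 h background was still wider than that of the later arrays. Its part in the differences was not tested.

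Snail binds the E-box CAGGTG and is best known as a repressor of epithelial genes such as those for cell junctions and polarity. In embryos it acts where cells leave the epiblast and turn mesenchymal. Transcription factors, receptors and guidance molecules that pattern the embryo are often present at low levels in pluripotent cells, so a range just above background holds many of them. Markers of the labelled cell type were checked first. Of 15 stem cell markers, 14 were detected on all 3 arrays. Pou5f1, which encodes OCT4, had normalized intensities of 3920, 5083 and 6189 at 4, 12 and 24 h. Other markers moved either way, with Utf1 at 1802, 2356 and 2389 and Esrrb at 5520, 1543 and 1641. Nanog (2833, 1147 and 1402) and Zfp42 (2461, 1018 and 960) were also lower late. Summed over the 15 genes, intensity was 58228, 48372 and 52868. Of 22 fibroblast markers, 15 were detected on none of the 3 arrays, among them the collagen genes Col1a1, Col1a2 and Col3a1, and 5 on all 3, namely Mmp2, Fbln1, Thy1, Col5a1 and Loxl1. Dcn and Twist1 were detected at 12 and 24 h only.

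Intensities were compared as log2 of the intensity plus 16, with negative values set to 0. The difference is the mean of 12 and 24 h minus 4 h, and its standard error (SE) comes from limma. The spread is the gap between the 12 and 24 h arrays, pooled mostly over probes of like intensity. A probe's own gap has 1 degree of freedom against 16.9 from the pool, so an SE is not that gene's own spread. The test thus takes the lone 4 h array to vary as the late arrays do and the later times to repeat each other. By limma, 159 dim probes rose and 250 fell at a Benjamini-Hochberg adjusted p of 0.05 over all 14504 probes that reached 32. These are 2.39% and 3.76% of the dim probes. Over all probes tested, 2.48% were called higher and 3.72% lower, so dim probes were called about as often as the rest. The rising probes covered 131 named genes and the falling ones 202.

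These counts depended on the settings. With 1 added in place of 16, 158 probes rose and 126 fell, and with the filter on the mean of the 3 arrays 156 and 160. With no filter on low values, 0 rose and 0 fell by limma, while 533 dim probes had an unadjusted p under 0.05. In the non-normalized table with normexp background correction, 46 of 111 rises and 97 of 191 falls kept their call. Among the falls described below, the calls that an offset of 1 ended included those of Myog, Mapt, Gprc5a, Trpv6, Id4, Crb3, Mmp14, Bmp4, Itga8, Ablim3, Tgfb1, Col9a2, both dim Tbx3 probes and 1 dim probe each of Rab25, Notum and Fzd5. Among the rises, calls that normexp ended included those of Msx1, Irx5, Irx3, Eomes, Hes6, Hes3, Egfr, Dusp6, Ddr1 and Etv1. Also ended were those of Bmp1, Efna5, Efnb2, Ephb1, both Col2a1 probes and 1 dim Acta2 probe. Among the falls, normexp ended those of Lama1, Hbegf, Bmp4, Mmp14, Crb3, Itga8, Col9a2, Kcnh2, Grin2c, Ankrd37, Bst2 and Ddx58. The same held for 1 dim probe each of Notum and Fzd5.

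Dim probes varied more than brighter ones between the late arrays as well as against 4 h. The median size of the difference from 4 h was 0.25 on the log2 scale for dim probes and 0.19 for brighter ones, while the median gap between 12 and 24 h was 0.19 and 0.15. The median signed difference of the dim probes was 0.02, and it was 0.01 for brighter probes. Without a test, 123 dim probes lay at least 2-fold above and 218 at least 2-fold below the 4 h array, against 1.36% and 2.49% of all probes tested. Taken singly, the 12 h array had 127 dim probes at least 2-fold above 4 h and 223 below, and the 24 h array 156 and 232. Between 12 and 24 h, 27 were higher at 24 h and 12 lower by this measure.

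**Figure D1:**
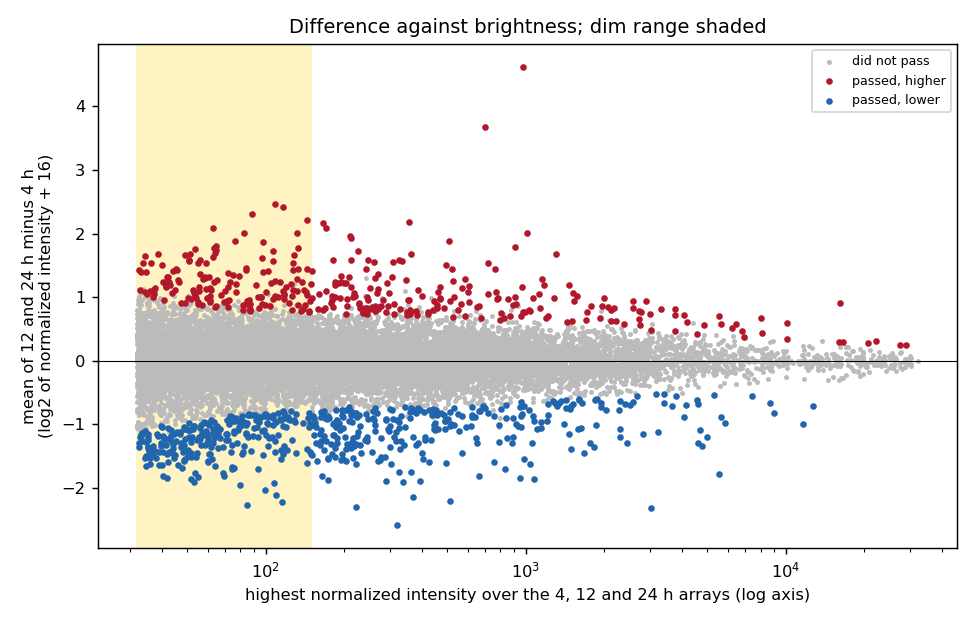
Difference between the mean of the 12 and 24 h arrays and the 4 h array (vertical axis, log2 of normalized intensity plus 16) against the highest normalized intensity over the 3 arrays (horizontal axis, log scale), 1 point per probe tested. The shaded band is the dim range from 32 to 150, where 159 probes passed as higher (red) and 250 as lower (blue).

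Probes at the edges of the range show how little separates members from non-members. Just inside the lower bound, a probe with no listed gene read 18.01, 12.46 and 32.01 at 4, 12 and 24 h, and just outside it Donson read 31.995, 25.8 and 29.7. At the upper bound, Slc25a26 read 139, 137 and 149.98 and was a member, while Miga2, at 106, 150.1 and 135, was not. The highest of the 3 readings fell on the 4 h array for 2454 dim probes, on the 12 h array for 2027 and on the 24 h array for 2174.

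Most rising dim probes were under the detection limit at 4 h, which at 31.4 was higher than the late limits of 18.5 and 18.9. A steady reading between these limits would thus also count as detected late only. Of the 159 rising probes, 112 were under the limit at 4 h, and of the 250 falling probes 108 were below it at both 12 and 24 h. Of all 6655 dim probes, 1085 were under the limit at 4 h and 196 were below it at both late times. Detection on the higher side was set by the choice of members, since a value of 32 exceeds the limits of all 3 arrays. A fold for such a probe is a bound, written "at least", taken against the higher of the detection limit and the probe's own reading. Bounds had a median of 1.46-fold for 100 rising probes and 1.73-fold for 108 falling ones, and 12 rising probes had none because the late mean did not clear the 4 h limit. Of probes detected on all 3 arrays, 47 rose by a median of 1.95-fold and 105 fell by a median of 1.99-fold, with highest values of 2.91-fold and 3.04-fold. Another 37 falling probes were detected on only 1 late array.

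The steepest rise was in smooth muscle actin, Acta2, which had 3 dim probes on the array. The first read -0.17, 47.2 and 109 at 4, 12 and 24 h, the second 3.44, 65.6 and 116, and the last 1.16, 32.6 and 82.3. All 3 were below detection at 4 h and above it at both later times. Their differences were 2.47 ± 0.33, 2.42 ± 0.29 and 2.01 ± 0.35 (SE, log2; limma adjusted p = 0.000199, 8.39e-05 and 0.00156), with bounds of at least 1.87-fold, 2.19-fold and 1.46-fold. On each probe the 24 h reading was the higher of the late pair.

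Insm1, a zinc finger factor of neuroendocrine and neuronal progenitors, was next at -1.69, 44.2 and 88.9 (at least 1.68-fold; limma adjusted p = 0.000237). Chst1, a keratan sulfate sulfotransferase gene, read 13.8, 145 and 102.5 (at least 2.91-fold), and Has2, which encodes a hyaluronan synthase, 0.48, 62.9 and 46.0 (at least 1.48-fold). Chst15, another sulfotransferase gene, read 3.40, 39.8 and 63.6. The late readings of Chst1 and Has2 were higher at 12 h, whereas those of Chst15 were higher at 24 h.

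Anxa3, a phospholipid-binding annexin gene, read 13.6, 80.2 and 132 (at least 2.51-fold), and the small GTPase gene Rab32 read 5.01, 45.4 and 64.6. The secreted kinase gene Pkdcc read 12.6, 56.4 and 107, after 40.5 and 36.6 at 0 and 2 h, both under the limits of those arrays. Ltb4r1, a leukotriene B4 receptor gene, Tmem54, Tmem229a and the scavenger receptor family gene Scarf2 completed the 15 largest rises together with Zfhx3. In all of these the 4 h reading was below detection and both late readings were above it. Both late readings lay farther from 4 h than from each other by the rule that chose these genes, and the same held for 3165 of the 6655 dim probes.

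Among the largest falls, the integrin gene Itgb7 read 115, 16.1 and 8.76 (at least 3.78-fold; difference -2.22 ± 0.28, limma adjusted p = 0.00014). Aurkc, an Aurora kinase gene best known from meiosis, read 99.2, 8.60 and 16.4 (at least 3.32-fold). The membrane protein gene Stom read 108, 21.8 and 12.6, with late detection at 12 h alone. In these genes the 0 and 2 h readings were also high, at 210 and 151 for Itgb7, 131 and 94.4 for Aurkc, and 75.5 and 90.4 for Stom.

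Mapt, which encodes the microtubule protein tau, read 53.4, 0.62 and 9.18 (at least 2.00-fold), and Gprc5a, an orphan receptor gene, 40.3, -0.14 and -3.27. Serpinb6c, Rad54l2, Trem1 and Mmp19 were also among the 15 largest falls. Inip, a gene for a partner of single-stranded DNA binding proteins, headed the list with 84.7, 6.81 and 3.27 (difference -2.26 ± 0.30; limma adjusted p = 0.000198). Its readings at 0, 2 and 8 h were 13.3, 23.0 and 22.8, so the 4 h array stood alone. A second dim Inip probe read 43.2, 39.1 and 50.4 and another 111, 136 and 127, and neither passed (limma adjusted p = 0.97 and 0.67).

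**Figure D2:**
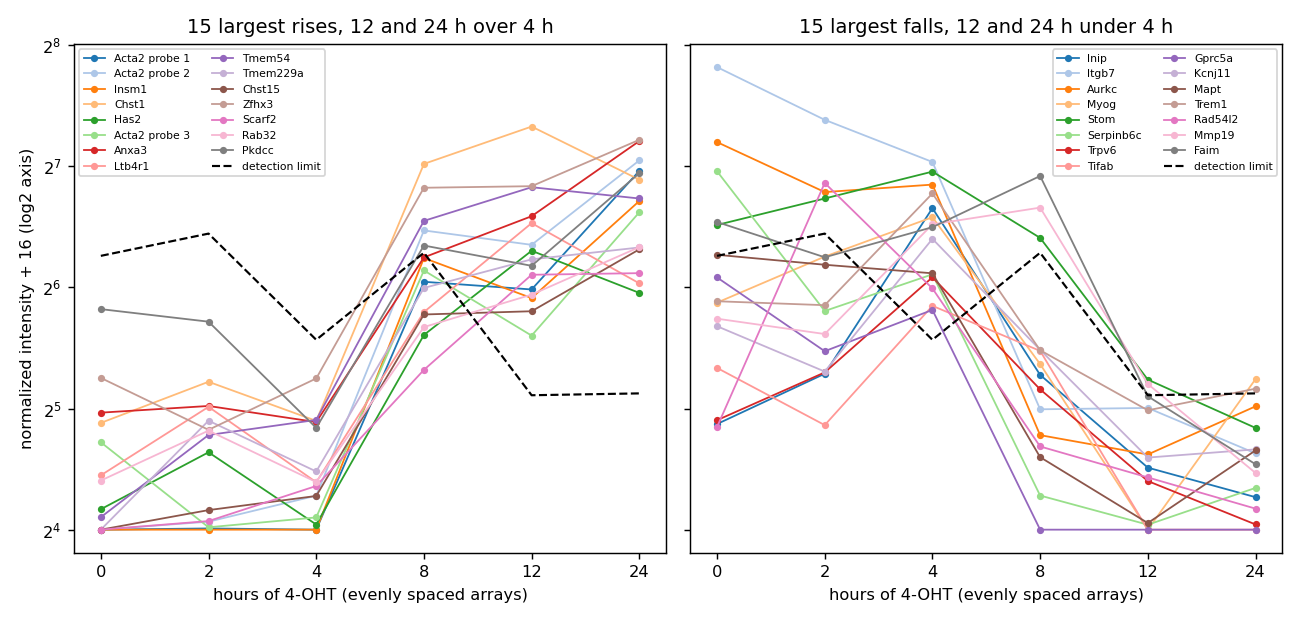
Normalized intensity plus 16 (log2 axis) on all 6 arrays for the 15 probes with the largest rises (left) and the 15 with the largest falls (right) between 4 h and the later arrays, with readings under 0 drawn at 0 and the detection limit of each array dashed. Rising probes sit below the limit at 4 h and above it at 12 and 24 h, and several falling probes, such as Inip, peak at 4 h only.

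Gene lists drawn up by role were then counted among the dim probes, with the shares over all probes tested, 2.48% higher and 3.72% lower, as the reference. Of 18 dim homeobox and patterning factor probes, 6 rose and 1 fell, with a median difference of 0.54 against 0.02 for all probes tested. Zfhx3, a large zinc finger homeobox gene, read 22.0, 98.2 and 133 (at least 2.75-fold; limma adjusted p = 0.000226). Irx5 and Irx3, which are neighbouring Iroquois genes, read 6.99, 28.1 and 96.5, and 31.3, 56.2 and 128. Both were higher at 24 than at 12 h by over 2-fold in intensity, which is also the direction of Acta2.

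En2, an engrailed gene of midbrain and hindbrain patterning, was detected on all 3 arrays and rose 2.35-fold, from 42.7 to 107 and 138 (1.23 ± 0.23, limma adjusted p = 0.003). Msx1, a BMP-responsive homeobox gene, read -0.38, 22.9 and 51.4 (at least 1.08-fold), and Nkx2-9, of the ventral neural tube, 3.53, 50.6 and 36.1. The bound of Msx1 is close to 1 because its late mean lies only slightly over the 4 h limit. Vax2, a factor of the ventral eye, fell from 101 to 51.8 and 36.4 (1.97-fold; limma adjusted p = 0.022). En1 had a difference of 1.12 that did not pass (limma adjusted p = 0.091), with readings of 1.23, 10.6 and 37.0.

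Of 21 dim Sox, Fox, Gata, T-box and Zic probes, 1 rose and 3 fell, with a median of -0.05. The riser was Eomes, a T-box gene of mesendoderm and trophoblast, at 22.2, 51.4 and 56.8 (at least 1.48-fold; limma adjusted p = 0.048). Tbx3, a T-box factor of the naive state, fell on 2 probes, which read 40.3, 3.99 and 5.48, and 46.8, 10.8 and 15.0. Sox15 fell 2.19-fold, from 84.3 to 28.6 and 31.1.

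Among 10 helix-loop-helix and Id probes, Hes6 rose 1.86-fold, from 35.0 to 87.1 and 71.4, and Hes3 passed with no bound, at 5.96, 26.0 and 36.1. Both belong to the Hes family of the Notch pathway and neurogenesis. Myog, the muscle factor myogenin, fell from 79.6 to -4.63 and 21.9, with late detection at 24 h alone. Id4, an inhibitor of such factors, fell from 50.2 to 1.23 and 15.8 (at least 1.91-fold; limma adjusted p = 0.015). None of 9 dim probes for Snail, Zeb and other regulators of epithelial and mesenchymal state passed by limma. Snai1 itself read 47.9, 18.6 and 19.8 (-0.86 ± 0.28, limma adjusted p = 0.076), and Twist1 17.6, 47.1 and 35.0 (limma adjusted p = 0.12).

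State markers gave few dim members, since most were bright or under 32. Of 9 dim naive pluripotency probes 4 fell, namely those of Tbx3 and Sox15 and a dim probe of Klf4, which fell 2.70-fold from 108 to 28.0 and 32.1 (limma adjusted p = 0.00155). No primed epiblast gene had a dim probe, and 9 of its 18 brighter probes rose. Fst, which encodes the activin antagonist follistatin, read 12.7, 48.5 and 71.5 (at least 1.59-fold; limma adjusted p = 0.00403) and was the 1 of 7 endoderm probes that rose. Lama1, a laminin chain gene, fell 1.96-fold on the same list, from 84.8 to 38.2 and 32.6. Eomes was the only 1 to pass among 2 mesoderm and 8 trophectoderm probes, as it stands on both lists. Of 12 neural probes, Nnat, an imprinted gene of developing brain, rose at 10.5, 41.0 and 58.4, while Mapt and Dpysl3 (105.7, 35.0 and 39.6) fell. None of 10 germline and 2-cell-like probes passed, and their median was -0.07.

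Cell guidance genes formed another list with more rises than falls. Of 20 dim probes for semaphorins, ephrins, Eph receptors and their kin, 5 rose and 1 fell, with a median of 0.23. Efna5, an ephrin ligand gene, rose 2.01-fold, from 34.2 to 95.7 and 74.9 (limma adjusted p = 0.015), and Epha1, an Eph receptor gene, from 38.6 to 90.4 and 95.9 (limma adjusted p = 0.0119). Efnb2 read 12.2, 40.3 and 63.3 and Sema6a 13.7, 60.7 and 56.0, both undetected at 4 h. Ephb1 passed without a bound, at -3.69, 36.1 and 25.1. Ephb4 fell 2.64-fold, from 121 to 36.5 and 35.3 (-1.40 ± 0.24, limma adjusted p = 0.00143). Brighter Ephb4 probes had differences of -0.03 and -0.15 and did not pass.

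Receptor tyrosine kinase and FGF genes also held more rises than falls, at 5 and 1 of 28 probes. Ddr1, a collagen receptor gene, rose 1.73-fold, from 71.7 to 137 and 135, and the ETS factor gene Etv1 1.86-fold, from 34.8 to 63.2 and 96.5. Igfbp7, which encodes an IGF-binding protein, read 18.4, 63.7 and 79.2 (at least 1.84-fold), Dusp6, a feedback phosphatase gene of the ERK pathway, 16.7, 42.0 and 49.1, and Egfr 1.76, 26.8 and 34.6. The Dusp6 call was lost with an offset of 1 and with 64. Brighter Dusp6 probes had differences of 0.52 and 0.37 and did not pass, while a brighter Etv1 probe passed as higher (0.77). Hbegf, a ligand gene of EGFR, fell 1.85-fold, from 93.4 to 38.5 and 48.3.

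The Wnt list held falls only among its dim probes, with 5 of 19 falling. Notum, which encodes a secreted Wnt-inactivating enzyme, fell on 2 probes, 2.76-fold on the brighter, from 150 to 47.4 and 40.8 (limma adjusted p = 0.000857). The receptor gene Fzd5 likewise fell on 2 probes, from 63.0 to 20.4 and 22.4 (2.11-fold) and from 116 to 63.4 and 58.3 (1.72-fold), while a brighter Fzd5 probe had a difference of -0.29 and did not pass. Porcn, needed for Wnt secretion, fell from 71.4 to 13.1 and 31.1, with late detection at 24 h alone. Among 12 brighter Wnt probes, 2 rose and 1 fell, and whether dim and bright probes of this list differ was not tested.

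Of 12 TGF-beta, BMP and Nodal probes, 2 rose and 3 fell. Fst rose, as did Bmp1, which encodes a procollagen protease, at 12.9, 36.8 and 52.97. Tgfb1 fell 1.84-fold, from 95.6 to 37.6 and 52.4, and a dim probe of Bmp4 read 35.2, 7.17 and 0.91 (at least 1.47-fold). Of 15 Notch, hedgehog and retinoic acid probes, Dlk1, an imprinted Notch ligand homologue, rose at 29.1, 129 and 126 (at least 3.03-fold; limma adjusted p = 0.000198), and so did the retinoid receptor gene Rxrg at 27.2, 77.0 and 72.9. Dlk1 had the largest bound of the rising probes.

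Adhesion genes were divided. Of 25 dim epithelial junction probes, 3 fell and none rose, with a median of 0.03. Crb3, a polarity gene that Snail is known to repress in epithelial cells, read 39.6, 2.98 and 10.9 (at least 1.60-fold; limma adjusted p = 0.023), after 10.3 and 52.2 at 0 and 2 h. Both of those earlier readings were under the limits of their arrays, so they cannot show whether Crb3 was low or high before 4 h. The Crb3 call was lost with an offset of 1 and after normexp correction. Rab25, an epithelial small GTPase gene, fell on 2 probes, from 146 to 78.4 and 73.7 (1.76-fold) and from 58.2 to 21.7 and 22.8 (1.94-fold). Of 13 integrin probes, Itgb7, Itga8 and Itga9 fell and Itga3 rose. Itga9 went from 102 to 25.5 and 36.8 (2.53-fold lower), Itga8 from 46.7 to 14.5 and 10.2, and Itga3 from 39.7 to 108 and 132 (2.44-fold higher; limma adjusted p = 0.00199). Of 9 cadherin probes, Cdh4 rose, at 8.18, 55.7 and 62.5 (at least 1.58-fold), and so did Pcdh1, at 17.4, 46.8 and 47.2.

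Matrix and cytoskeletal genes also split. Of 40 mesenchymal and matrix probes, 4 rose and 4 fell. Col2a1, the cartilage collagen gene, rose on 2 of its 3 dim probes, at 43.4, 85.6 and 86.8 (1.72-fold) and at 26.2, 58.5 and 70.1. Ccn4 read 0.41, 23.7 and 32.7, and Dcn -3.15, 33.8 and 34.3 (at least 1.05-fold). Dcn, a proteoglycan gene, is also on the fibroblast list, whose summed intensity over all 22 genes was 1218, 1132 and 1144 at 4, 12 and 24 h, most of it from the brighter Mmp2, Fbln1 and Thy1. The 4 dim probes of that list summed to 152, 214 and 222, with a median difference of 0.69, and Loxl1 read 32.2, 52.9 and 63.7 and Twist1 17.6, 47.1 and 35.0. Dcn alone among these 4 passed. The part of other cells in the Dcn reading was not tested. Tgfbi, Col9a2 and Lama1 fell between 1.77-fold and 1.96-fold.

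A dim probe of Mmp14, a membrane metalloproteinase gene, fell from 38.9 to -1.45 and 9.59 (limma adjusted p = 0.018), while a brighter probe of the same gene had a difference of 0.60 that did not pass. Of 20 contractile and filament probes, the 3 of Acta2 rose, and Actn3 (85.3, 30.5 and 25.9) and Ablim3 (49.1, 9.87 and 3.37) fell.

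Of 30 dim ion channel probes, 6 fell, none rose and 24 did not pass, with a median of -0.20. Kcnj11, a potassium channel gene of the insulin-secreting cell, read 68.5, 8.17 and 9.33 (at least 2.43-fold; limma adjusted p = 0.00118), and the calcium channel gene Trpv6 51.8, 5.13 and 0.49. Scn4b, Kcnh2, Ano6 and the glutamate receptor gene Grin2c were the others. With an offset of 1, Kcnj11 alone of the 6 kept its call. That call was lost in a trend fitted over all 6 arrays (limma adjusted p = 0.182). Kcnj11 read 35.2, 23.5 and 28.8 at 0, 2 and 8 h, all under the limits of those arrays. Trpv6 read 13.9 and 23.3 at 0 and 2 h and Grin2c 80.9 at 8 h. Those Trpv6 readings were also under the limits, while the Grin2c reading was over the 8 h limit. Readings under the limits cannot show whether the 6 genes shared a course over the 6 arrays.

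Solute carriers and genes named Zfp, 2 large families that are not tied to a lineage, moved little. Of 110 dim solute carrier probes, 2 fell and none rose, with a median of 0.01, and of 158 probes for genes named Zfp, 5 rose and none fell, with a median of 0.02. Of 20 dim probes for G protein-coupled receptors, 2 rose and 3 fell, Adgre5 falling 2.06-fold and 2.04-fold on its 2 probes. Among 14 p53 target and apoptosis probes, Gadd45b fell, at 62.5, 15.6 and 16.1, and among 15 hypoxia and glycolysis probes P4ha1 and Ankrd37 fell. Of 14 interferon and immune probes, Bst2 and Ddx58 fell. As a check on signals that stem cells should lack, 3 olfactory receptor probes lay in the dim range and none passed by limma. Their differences were 0.58 for Olfr985, -0.999 for Olfr49 and -0.994 for Olfr373 (limma adjusted p = 0.129, 0.0678 and 0.0811). The median of this list was -0.99, so its failure to pass does not mean that its readings were steady. Of 5 dim probes of genes defining other tissues, Slc12a1, a kidney transporter gene, fell.

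**Figure D3:**
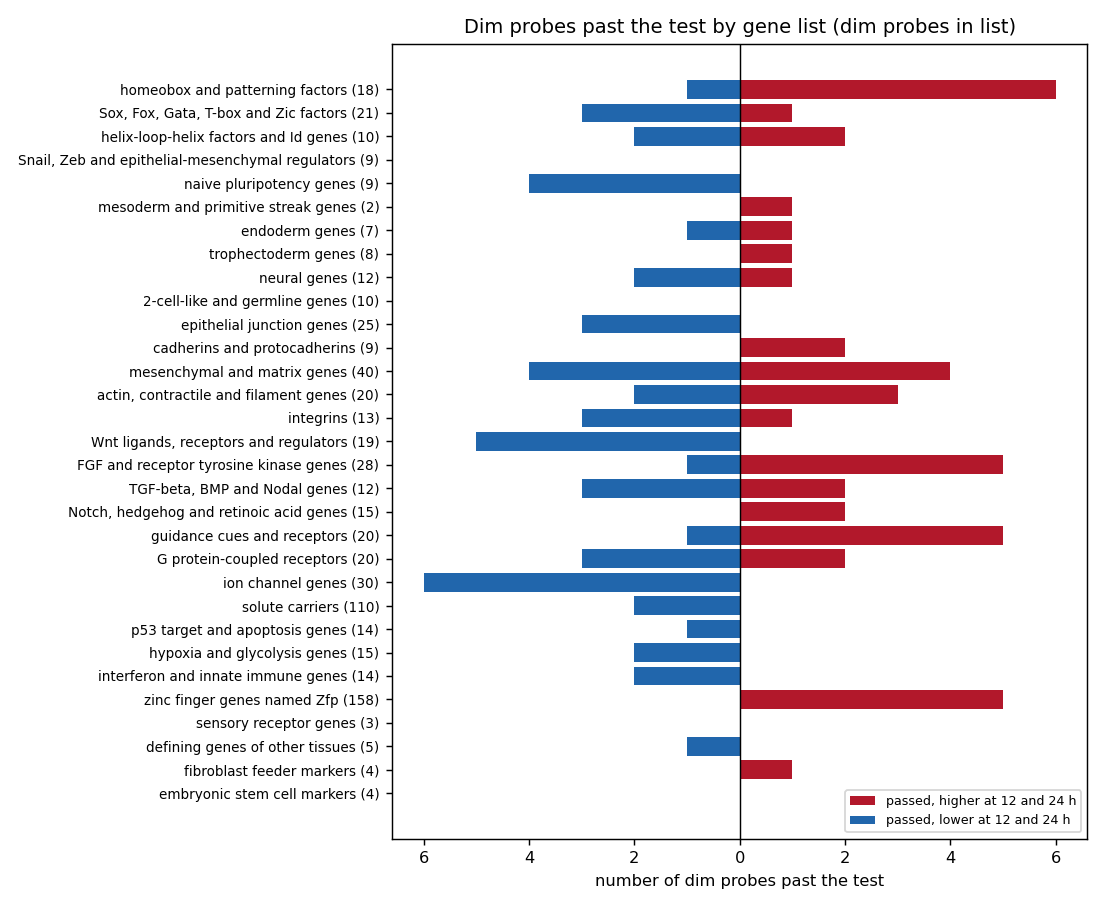
Number of dim probes past the limma test in each gene list, higher at 12 and 24 h to the right (red) and lower to the left (blue), with the number of dim probes in the list in brackets. Homeobox and patterning factors have 6 rises of 18, and ion channel genes 6 falls of 30.

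**Figure D4:**
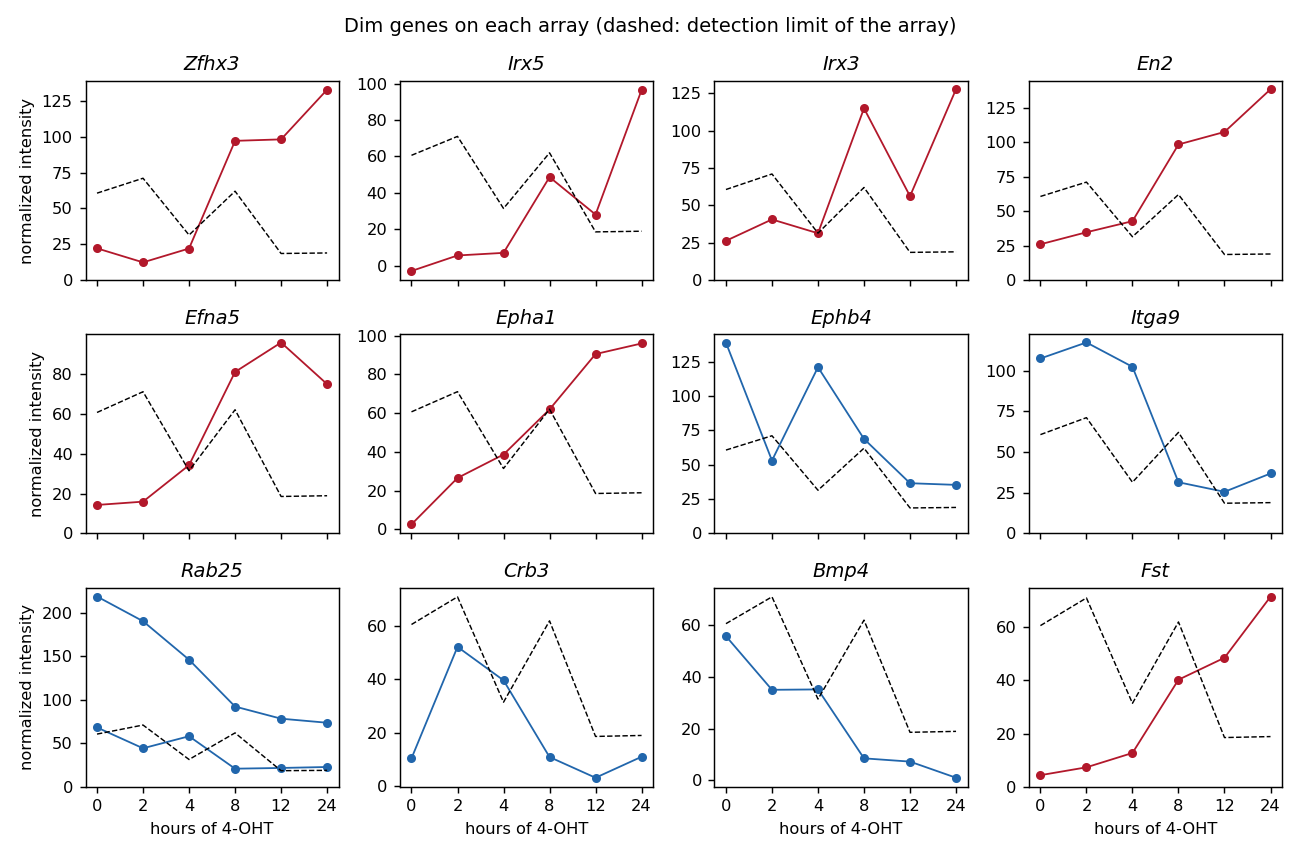
Normalized intensity on each of the 6 arrays for 12 genes of the lists (red, rose by limma; blue, fell), with each array's detection limit dashed. Rab25 shows 2 probes, and Ephb4 reads low at 2 h between high readings at 0 and 4 h.

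The arrays at 0, 2 and 8 h took no part in choosing or testing these probes. The 8 h array was set against the mean of the 0 and 2 h arrays as a second reading of earlier against later cells. For the 159 rising dim probes the median of that difference was 0.92 (log2), and 154 were higher at 8 h. For the 250 falling probes it was -0.92, and 207 were lower at 8 h, while 43 were higher. Of dim probes that did not pass, 54.9% were higher at 8 h. Many of these readings were under the limits of the 3 arrays: 98 of the rising and 95 of the falling probes were detected on none of them.

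The 43 exceptions set dim falls apart from brighter ones in description, though the difference was not tested. Of 289 brighter falling probes none was higher at 8 h. The 43 dim probes had median intensities of 37.5, 36.3, 49.2 and 68.0 at 0, 2, 4 and 8 h and of 9.77 and 10.03 at 12 and 24 h, and 32 were undetected on both late arrays. Their readings were thus low at 12 and 24 h, where the background was narrowest, as a lower call requires. The highest reading fell at 8 h, where the background was wide, for 28 of them and at 4 h for 10. The part of the background in this pattern was not tested. Faim, an inhibitor of apoptosis gene, is 1 of them, at 77.02, 60.03, 74.3, 105.04, 18.3 and 7.26 in order of time, and its brighter probes had differences of 0.06 and -0.05 from 4 h to the late arrays, which did not pass. Slc12a1, the kidney gene, read 18.9, 77.8, 43.8, 141, 7.02 and 5.87, and Mmp14 and Grin2c belong here too. The other 207 falling probes had medians of 72.6, 71.2 and 68.5 up to 4 h and of 25.0, 21.0 and 19.8 from 8 h.

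**Figure D5:**
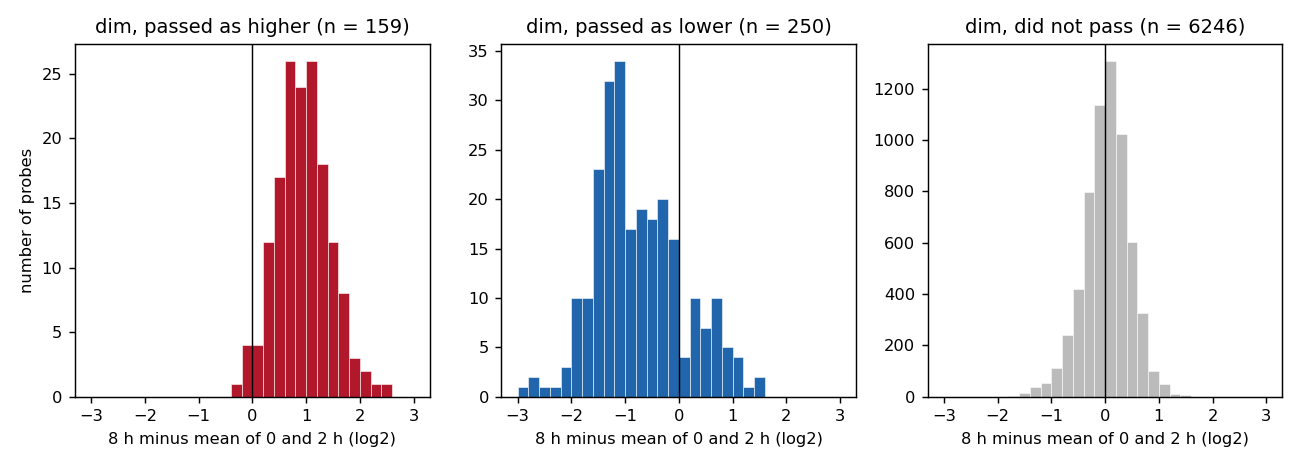
Number of dim probes by their difference between the 8 h array and the mean of the 0 and 2 h arrays (log2 of normalized intensity plus 16), for probes past the 4 h comparison as higher (left), as lower (middle) and for those that did not pass (right), with differences beyond 3 drawn at 3. Of the probes past as lower, 43 of 250 lie above 0.

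Some genes with a called dim probe had other probes that reached 32. For rising genes, 26 of 28 brighter probes also had a positive difference, 14 of them past the test, and none passed as lower. For falling genes, 45 of 61 brighter probes had a negative difference, 30 of them past the test, and none passed as higher. The other dim probes of these genes were counted without those called in the same direction. Of them, 29 of 30 ran with the rise and 28 of 36 with the fall, and none passed the opposite way. Brighter probes of Klf4, Tbx3, Bmp4 and Porcn passed as lower, and those of Acta2 and Zfhx3 as higher. Besides Faim and Mmp14, the brighter probes that ran against a dim fall included 4 for Usp47 and 2 for Srr, with differences from 0.09 to 0.40 that did not pass. Probes of 1 gene can read different transcripts, which these tables do not tell apart.

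Promoters of the called genes were searched for the Snail E-box, CAGGTG on either strand, in the 250 bases before each RefSeq start (GRCm38.p6). Of 155 falling genes with a listed promoter, 30 (19.4%) held it, and of 96 rising genes 24 (25.0%) did. The share was 18.0% among 3433 dim genes without a call and 19.4% among all 27025 genes of the promoter table. A match is a string of letters and shows no binding. At least 2 matches were held by 66 of the 3433 dim genes without a call and by 647 of all 27025 genes. Among called genes, 6 of the 96 rising and 4 of the 155 falling genes held at least 2. Those on the gene lists are shown, with the E-boxes in capitals: Crb3 (chr17:57061951-57062200, plus strand), Rab25 (chr3:88548280-88548529, minus strand), Itga9 (chr9:118711442-118711691, plus strand) and Zfp467 (chr6:48445091-48445340, minus strand). The first 3 fell and Zfp467 rose.
Crb3: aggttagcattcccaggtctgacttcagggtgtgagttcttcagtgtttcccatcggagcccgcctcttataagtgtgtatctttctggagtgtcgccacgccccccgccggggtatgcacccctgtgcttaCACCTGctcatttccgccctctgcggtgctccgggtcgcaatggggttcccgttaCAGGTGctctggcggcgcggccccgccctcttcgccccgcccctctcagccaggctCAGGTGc
Rab25: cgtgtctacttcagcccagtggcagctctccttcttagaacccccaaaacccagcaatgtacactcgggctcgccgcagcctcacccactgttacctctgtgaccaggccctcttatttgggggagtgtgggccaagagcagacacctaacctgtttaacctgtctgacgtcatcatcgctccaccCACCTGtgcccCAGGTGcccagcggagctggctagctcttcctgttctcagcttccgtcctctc
Itga9: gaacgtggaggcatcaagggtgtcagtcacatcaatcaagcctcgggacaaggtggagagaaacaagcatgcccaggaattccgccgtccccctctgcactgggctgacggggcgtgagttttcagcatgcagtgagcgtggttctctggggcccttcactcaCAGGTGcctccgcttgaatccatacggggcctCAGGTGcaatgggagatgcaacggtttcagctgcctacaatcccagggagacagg
Zfp467: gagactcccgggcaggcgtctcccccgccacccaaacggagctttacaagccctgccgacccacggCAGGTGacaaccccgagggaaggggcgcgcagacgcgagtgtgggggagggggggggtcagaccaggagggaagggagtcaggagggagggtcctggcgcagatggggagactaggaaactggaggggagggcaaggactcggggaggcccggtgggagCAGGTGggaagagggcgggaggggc

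Crb3 has 3 matches, beginning 118, 63 and 7 bases before the start, and a second listed start lies close by. Rab25 has 2, at 64 and 53 bases, and Itga9 2, at 87 and 55 bases. In Zfp467, which rose at 5.24, 37.3 and 45.6 (at least 1.21-fold; limma adjusted p = 0.00457), they begin 184 and 25 bases before the start.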

How the data were processed

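Expression was measured with Illumina bead arrays, 1 per time, and groups were taken from the sample titles. The authors deposited a table of intensity without background subtraction and detection p-value per probe, per the file headers, and a table of normalized intensity. GenomeStudio was used, per the submitters' processing notes; its version and steps are not given in the sources used here. Negative values and an equal minimum and maximum on every array point to background subtraction and quantile normalization on a linear scale. The non-normalized table as held here covers 4426 of the 6655 dim probes and served for detection limits and alternatives. Detection p-values are steps of 1 in 936 negative controls.

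Values were set to 0 where negative, 16 was added, and log2 was taken, which understates folds of dim genes. Folds are on this scale. Probes reaching 32 on at least 1 of the 3 arrays (14504) were fitted with limma 3.58.1 in R 4.3.3 (lmFit, eBayes with an intensity trend, 1 residual degree of freedom, 2-sided, Benjamini-Hochberg at 0.05), the 4 h array against the 12 and 24 h arrays. The filter rests on the highest value, so a probe high on 1 array alone enters. The fit was tested on simulated data in which each probe had the same spread on all 3 arrays. That test therefore could not check whether the 4 h array varies as the late ones do. Gene symbols came from the platform annotation (34885 probes with 1 symbol, 18 with several, 10378 with none), updated by Entrez identifier against RefSeq, where 5659 of 5666 dim probes matched. The number of arrays limits precision.

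Named genes are the 15 largest rises and 15 largest falls among called probes whose distance from 4 h exceeded the gap between 12 and 24 h, plus gene list members that passed or differed at least 2-fold, and the 2 largest rises and 2 largest falls of each list. Probes at range edges, other probes of a gene and probes high at 8 h were picked after their values were seen. The members and lists were chosen with earlier results of these data known. Symbols that share only a prefix with a list's family, such as Ephx1, were removed. Alternatives were the offset, the filter, the dim range, centring, the trend, the other table, all 6 arrays and each late array alone.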

Additional observations from a re-analysis of the deposited data

How the results depend on the processing

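The counts depended on the fit's settings, and the median difference of the dim probes did not, staying between 0.01 and 0.05 in all settings run. With an offset of 1, 158 probes rose and 126 fell, with 330 at least 2-fold higher and 432 lower. With an offset of 64 the fold counts were 8 and 6, as the offset compresses folds. From the non-normalized table, which holds fewer of the probes, 46 rose and 97 fell after normexp background correction (59 and 114 by fold), and 36 and 118 without correction (0 and 0 by fold). Filtering on the mean of the 3 arrays left 156 rises and 160 falls, with 75 at least 2-fold lower, since probes high at 4 h alone are then dropped. All 128 falls and 125 rises still in that table kept their call. With no filter, 0 dim probes rose and 0 fell by limma at an adjusted p of 0.05, while 533 had an unadjusted p under 0.05; 10241 probes then sit at 0 on all 3 arrays with no spread, and the prior degrees of freedom fell from 16.9 to 0.68. A dim range set on the mean gave 132 probes at least 2-fold lower, and a range from 50 gave 117. A trend over all 6 arrays gave 503 rises, and 12 and 18 by fold; 115 of the 159 rises and 127 of the 250 falls were called there too. The other settings kept the counts within 1.5 times. Of 107 named probes with a call, none changed sign in any setting, and 29 lost the call with an offset of 1, 36 in the trend and 14 without an intensity trend. Of 78 in the non-normalized table, 33 lost it after normexp and 32 without correction. Single late arrays gave values without a test. Against either alone, 27 of the 107 named probes moved by more than their standard deviation from limma, pooled over probes, and 80 did not. Both late arrays lie equally far from their mean, so these are the same probes and only 1 check. That no sign changed was also fixed in part. Some settings, such as those of the dim range, reuse the same differences, and the largest rises and falls were chosen with both late arrays on the same side of 4 h. No paired analysis was possible because each time has 1 array and the titles carry no replicate numbers.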
